A study of Homo sapiens with 6 samples.

Results

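The nuclear receptor genes of BT549 cells were described here, chosen by symbol from the gene table of the series: 46 receptor genes of 23346 genes in all. BT549 is an established human breast cancer line that the sample labels describe as mesenchymal and of wild-type genotype, and all cells were grown in RPMI medium with FCS. Cells received either NC siRNA, a negative control, or BNC2 siRNA, an equal mix of 3 siRNAs against basonuclin-2, a zinc-finger protein, at 20 nM in both groups, and poly(A) RNA was sequenced 6 d later from 3 biological replicates of each. The comparison is thus of 1 siRNA pool with 1 control siRNA in 1 cell line, and effects of the single siRNAs of the pool cannot be told apart.

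Nuclear receptors are transcription factors with a zinc-finger DNA-binding domain and a ligand-binding domain, through which many of them answer to small fat-soluble molecules such as steroids, thyroid hormone, retinoic acid, vitamin D, oxysterols and fatty acids. Steroid receptors bind DNA mainly as homodimers, many of the other ligand-regulated receptors pair with a retinoid X receptor (RXR), and several orphan receptors act without a known hormone. Bound corepressors silence the target gene and coactivators, recruited when a ligand binds, activate it. In the breast, the estrogen and progesterone receptors divide tumours into classes, and lines such as BT549 are used as receptor-negative models.

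The sense strands of the siRNAs are shown because the whole comparison rests on them. Capitals mark the 19 bases of the duplex, which for the BNC2 siRNAs match the BNC2 mRNA, and small letters mark the overhang.
BNC2 siRNA (1): GACUUGUGAUCAGUGUAAAtt
BNC2 siRNA (2): GGAAGACAUUCUAUGACAAtt
BNC2 siRNA (3): CCUCUGUACGAAGCCGAAAtt
NC siRNA: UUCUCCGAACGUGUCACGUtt
In GRCh37 (hg19) these sites lie on the minus strand of chromosome 9, at chr9:16583000-16583018 in exon 4, chr9:16436834-16436852 in exon 6 and chr9:16419045-16419063 in exon 7 of the 7 exons of the canonical BNC2 transcript, all of them in coding sequence. Over the full 19 bases and without mismatches, each matched transcripts of BNC2 only, and the NC siRNA matched transcripts of 0 genes. Shorter or imperfect matches, and matches of the other strand of the duplex, were not searched. Effects of the siRNAs on other genes were thus not checked. BNC2 mRNA stood at 65.6, 51.5 and 58.6 CPM (counts scaled to library size, TMM-normalised) under NC siRNA and at 35.5, 36.6 and 41.6 CPM under BNC2 siRNA, so the groups did not overlap and BNC2 fell to 0.646 of its control level (log2 fold change -0.63, SE 0.09, edgeR adjusted p = 8.2e-06).

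The libraries held 16093978 to 18246254 gene counts each, and the first principal component, with 90.8% of the variance, separated the groups. All 7 mesenchymal marker genes examined were past the low-count filter, 5 rose and 2 fell (72.9% of all genes tested were called, 36.6% higher and 36.2% lower), and their summed level was 6513 to 6619 CPM with NC siRNA and 6649.6 to 6911 CPM with BNC2 siRNA. Of 9 epithelial markers 8 were below the filter, EPCAM and ESRP1 at 0 counts in every library and CDH1 with 1 count over the 6 libraries together. The summed epithelial level was 4.03 to 6.37 CPM with NC siRNA and 1.66 to 1.69 CPM with BNC2 siRNA, and within it KRT18 fell from 4.63 ± 0.942 to 0.456 ± 0.179 CPM. KRT18 passed the filter only through the NC siRNA libraries. ESRP2, below the filter and not tested, had 8, 7 and 2 counts with NC siRNA and 13, 23 and 17 with BNC2 siRNA. Of 5 markers of blood, endothelial and liver cells only CD68, which many cell types carry in lysosomes, was past the filter, and it rose from 117 ± 6.87 to 144 ± 6.2 CPM. The part of these marker changes in the receptor results was not tested.

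Which receptors do these cells express? A gene was tested when at least 3 of the 6 libraries held it above 1 CPM. Of the 46 receptor genes 28 were, and 18 fell below. Compared per kilobase of the canonical transcript, which allows levels to be set side by side between genes, the glucocorticoid receptor gene NR3C1 was at 31.6 ± 2.31 CPM per kb with NC siRNA (mean ± SD, n = 3), followed by NR2F2 (COUP-TFII) at 29.6 ± 2.12, NR1H2 (LXRβ) at 25 ± 0.417, NR2F6 at 18.3 ± 2.58, ESRRA at 12.9 ± 0.761 and PPARD at 12.3 ± 0.249 CPM per kb. NR3C1 and NR2F2 overlapped in their libraries, and so did ESRRA and PPARD. At the other end, PPARA, NR2E1, NR4A3, NR1H3, NR6A1, NR3C2 and THRB lay below 1 CPM per kb. Of the 27 neighbouring pairs in this order 13 had overlapping libraries, so their order is not resolved.

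With BNC2 siRNA the order of levels changed at the top. NR1H2 stood first at 43.1 ± 2.79 CPM per kb, above NR3C1 at 28 ± 1.37, without overlap between the libraries of these 2 genes. ESRRA at 16.8 ± 0.500, NR2F2 at 16.1 ± 0.651 and NR2F6 at 14.9 ± 0.59 CPM per kb came next, with overlap between neighbours. NR1D1 went from rank 7 to rank 14, NR5A2 from rank 15 to rank 20 and PPARA from rank 22 to rank 17. In this order 15 of the 27 neighbouring pairs overlapped. Ranks depend on the transcript length used: with the length of all exons, NR3C1 stayed above NR1H2 under BNC2 siRNA (20.7 and 19.5 CPM per kb), and PPARG, whose canonical transcript is short beside all its exons (1774 and 11981 bases), went from rank 8 to rank 18 with NC siRNA.

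**Figure D1:**
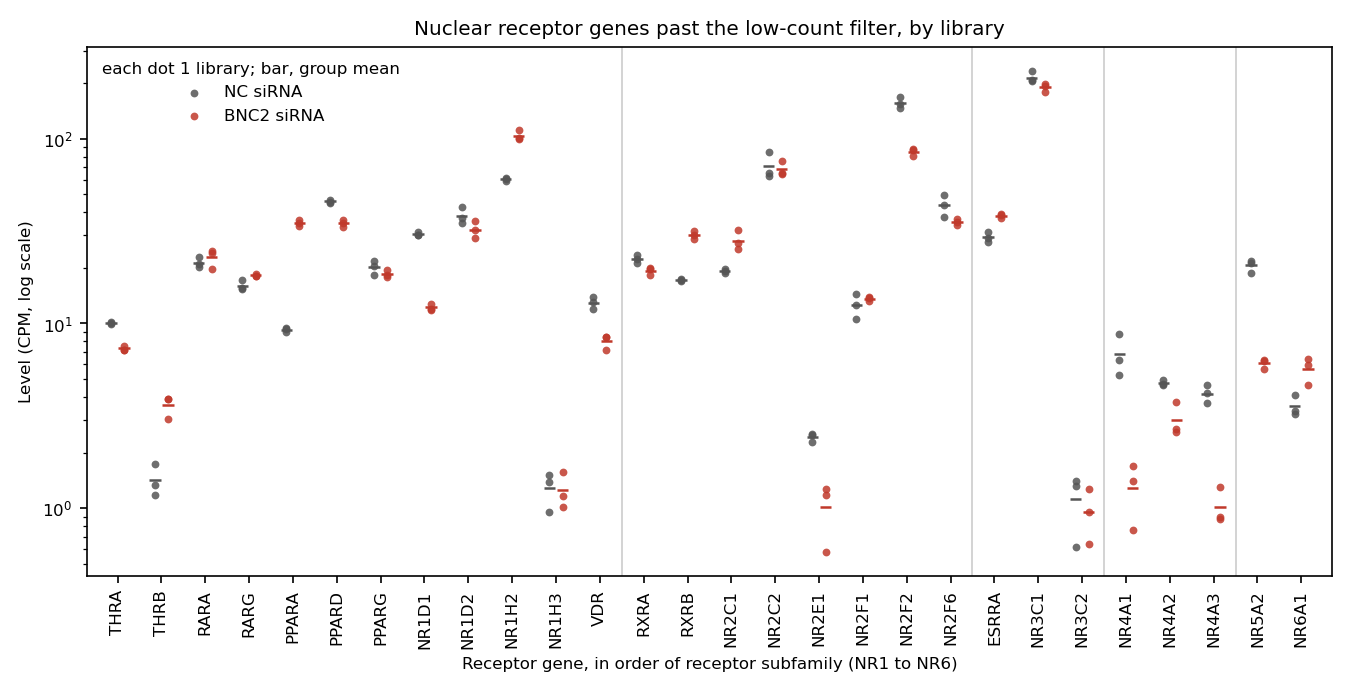
Level of each of the 28 nuclear receptor genes past the filter, in CPM on a log axis, with 1 dot for each library (grey, NC siRNA; red, BNC2 siRNA) and a bar at the mean of each group of 3, in order of receptor subfamily from NR1 to NR6. CPM values are not divided by transcript length. PPARA, NR1D1, NR2F2 and NR5A2 show groups far apart with little spread, whereas NR4A1 and NR2E1 are low and spread more.

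The 18 receptors below the filter included those of classical breast endocrinology. ESR1, the estrogen receptor α gene, had 1, 0 and 0 counts under NC siRNA and 1, 0 and 0 under BNC2 siRNA. ESR2, for estrogen receptor β, had 2, 4 and 0 and 0, 2 and 2 counts, and PGR, for the progesterone receptor, 0, 0 and 2 and 0, 1 and 0. These values are at or near the 3 counts that a count of 0 still allows, 0.168 to 0.191 CPM depending on the library. The bile acid receptor NR1H4, the xenobiotic receptor NR1I2 and NR0B2, which lacks a DNA-binding domain, had 0 counts in every library. RORB, NR1I3, RXRG, HNF4A, ESRRG and NR5A1 had at most 3 counts in any library. HNF4A and HNF4G are hepatocyte nuclear factors, and HNF4G had 7, 20 and 6 counts with NC siRNA and 6, 15 and 11 with BNC2 siRNA. RARB, itself a retinoic acid target, had 7, 3 and 9 and 4, 2 and 5 counts. RORA, which competes with the REV-ERBs at clock gene promoters, had 8, 19 and 7 and 15, 17 and 13 counts, and NR0B1 had 4, 1 and 9 and 3, 2 and 4.

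Fitted without a filter, 15 of these 18 had counts to test and 2 were called, where 53.3% of all 18121 genes were called in that fit. ESRRB, an estrogen-related receptor, had 0, 3 and 2 counts with NC siRNA and 8, 9 and 11 with BNC2 siRNA, which is 2.47 higher on the log2 scale (edgeR adjusted p = 0.0025 in that fit). NR2E3, a photoreceptor regulator, had 8, 7 and 5 and 15, 18 and 10 counts and a log2 fold change of 1.16 (edgeR adjusted p = 0.0352 in that fit).

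Of the 28 receptor genes tested, 21 differed between BNC2 siRNA and NC siRNA at an adjusted p of at most 0.05 (75.0%), where 72.9% of all 12186 genes tested did. The share of receptors called is thus near the background, and the comparison called most expressed genes. In direction, 7 receptors were higher (36.6% of all genes were) and 14 lower (36.2% of all genes were). The median log2 fold change was -0.19 over the 28 receptors and 0.00 over all genes, and the median size, whatever its sign, was 0.50 and 0.44. The receptors' median was -0.11 without BNC2 siRNA replicate 1, and also with edgeR's filterByExpr. At least 2-fold changes were called in 7 receptors (25.0%), 2 higher and 5 lower, against 18.1% of all genes. The groups of libraries did not overlap in 21 receptors (75.0%), against 74.9% of all genes. In bulk RNA of a culture, fewer cells that express a receptor and less of its RNA per cell cannot be told apart.

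**Figure D2:**
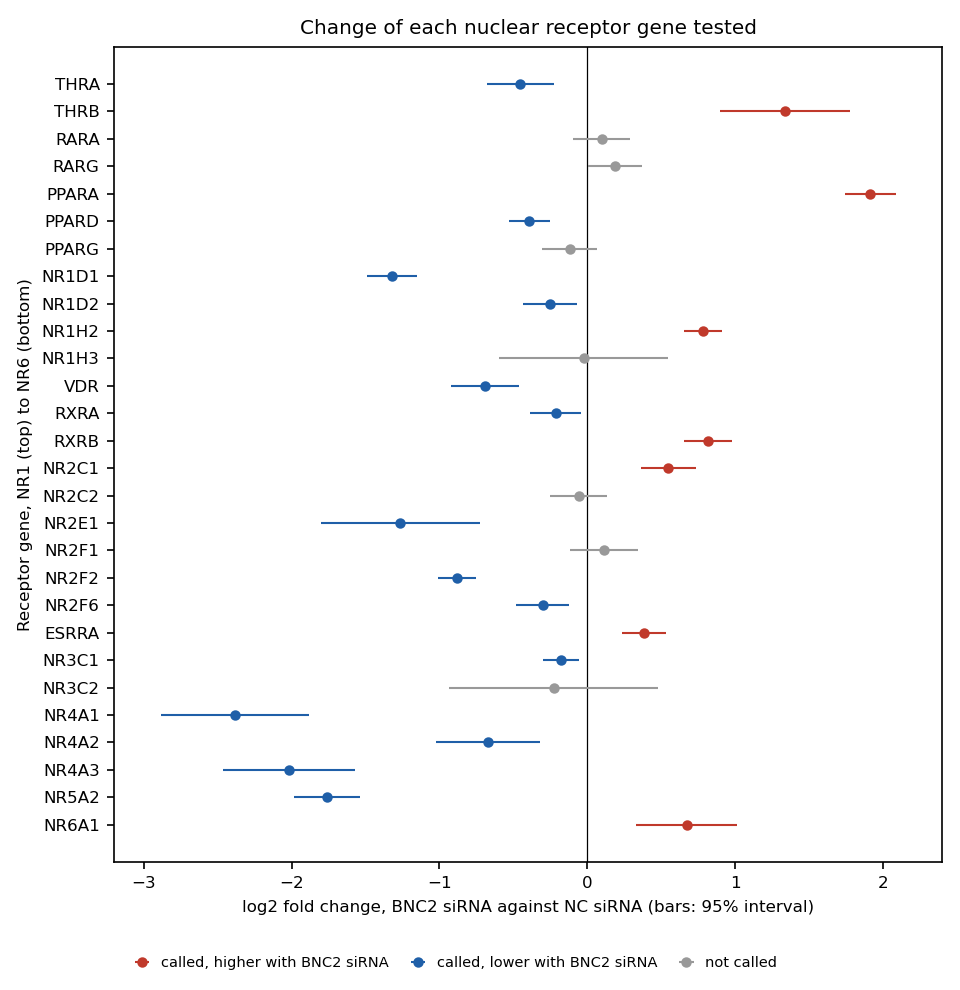
Log2 fold change of each of the 28 nuclear receptor genes tested, BNC2 siRNA against NC siRNA, with its 95% interval; red, called higher; blue, called lower; grey, not called. All 3 NR4A genes, NR5A2, NR1D1 and NR2E1 lie to the left, and PPARA and THRB lie farthest to the right.

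The NR4A genes encode orphan receptors whose transcription is switched on within minutes by growth factors, cyclic AMP or stress, and whose activity follows their amount rather than a hormone. All 3 were lower with BNC2 siRNA. NR4A1 (NUR77) stood at 5.29, 8.79 and 6.32 CPM with NC siRNA and at 1.69, 1.41 and 0.764 CPM with BNC2 siRNA, from 94, 157 and 105 and 29, 25 and 12 counts. It fell to 0.192 of its control level, the lowest ratio among the 28 receptors (log2 fold change -2.38, SE 0.25, edgeR adjusted p = 2.99e-07). Every BNC2 siRNA library lay far below the lowest NC siRNA library, although NR4A1 varied more among replicates than most receptors. NR4A3 (NOR1) was measured at 4.62, 3.7 and 4.21 CPM with NC siRNA and 0.872, 1.3 and 0.891 CPM with BNC2 siRNA, again without overlap (log2 fold change -2.02, SE 0.23, edgeR adjusted p = 6.17e-07). NR4A2 (NURR1) was at 4.96, 4.65 and 4.7 CPM with NC siRNA and 2.68, 2.6 and 3.76 CPM with BNC2 siRNA, a smaller fall with the highest treated library below the lowest control library (log2 fold change -0.67, SE 0.18, edgeR adjusted p = 0.00314).

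Summed over the NR4A genes, the level went from 4.86 ± 0.60 to 1.57 ± 0.03 CPM per kb (mean ± SD, n = 3 each). Its make-up went the same way in every library: NR4A1 held 48.6% to 63.9% of the sum with NC siRNA and 19.9% to 42.3% with BNC2 siRNA, and NR4A2 held 24.2% to 32.6% and 48.0% to 69.9%. These shares did not overlap between the groups (exact two-sided permutation p = 0.1 for each, the smallest that 3 libraries against 3 allow). Per kb of canonical transcript, NR4A2 was the most abundant NR4A transcript in each BNC2 siRNA library and NR4A1 in each NC siRNA library. With the length of all exons NR4A2 led on average in both groups, with 42.2% under NC siRNA and 68% under BNC2 siRNA, against 33.6% and 16.8% for NR4A1, so the directions of the shares held and the exchange of the leading gene did not.

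The promoter of NR4A3 is shown because NR4A promoters are known for cyclic AMP response elements, through which the factor CREB acts, and because NR4A1 and NR4A3 both fell. The RefSeq sequence runs from 119 to 11 bases before the start site (GRCh38.p14, plus strand, chr9:99821766-99821874), and capitals mark each match to TGACG, the core of that element, or to CGTCA, the same letters on the other strand.
NR4A3 promoter: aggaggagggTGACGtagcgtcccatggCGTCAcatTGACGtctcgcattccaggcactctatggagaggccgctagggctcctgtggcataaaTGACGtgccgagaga
Searched on both strands over the 250 bases before the start site, TGACG had 4 matches in NR4A3. It was found in 21.2% of all 35116 promoter windows in the table, and 4 or more matches in 83 of them (0.236%). Of the 96 windows of the 41 receptors with an entry 16 held it (16.7%). A window with 2 matches was found for NR6A1, which rose, for NR1D2 and NR2E1, which were called lower, and for PGR, below the filter. Neither of the 2 windows listed for NR4A1 holds these letters, and NR4A2 had no entry. Another search, for AGGTCA, the core to which most receptors of the NR1 and NR2 subfamilies bind, matched 15 of the 96 receptor windows (15.6%), against 12.1% of all windows. A match is a description of the letters and not a site shown to be bound.

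NR5A2 (LRH-1), an orphan receptor that drives aromatase, bile acid and stem cell genes and is known in breast cancer cells for promoting growth, was also much lower. It was measured at 21.9, 18.7 and 21.4 CPM in control cells and at 5.64, 6.38 and 6.24 CPM after BNC2 siRNA. The replicates were close together in both groups, and NR5A2 fell to 0.295 of the control level (log2 fold change -1.76, SE 0.11, edgeR adjusted p = 6.03e-10). NR6A1 (GCNF), a repressor of pluripotency genes, was low and moved the other way, with 3.38, 3.25 and 4.09 CPM for NC siRNA and 4.65, 6.43 and 5.99 CPM for BNC2 siRNA (log2 fold change 0.67, SE 0.17, edgeR adjusted p = 0.00234).

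Among the receptors that sense fatty acids and sterols, PPARA and NR1H2 rose. PPARA encodes PPARα, which turns on fatty acid oxidation. It stood at 9.46, 9.02 and 9.33 CPM with NC siRNA and 33.7, 35.1 and 36.2 CPM with BNC2 siRNA, which is 3.77-fold higher (log2 fold change 1.91, SE 0.09, edgeR adjusted p = 1e-11). No other receptor tested rose as much, and the replicates within each group differed by little. PPARD, the widely expressed PPAR, went from 46.9, 45.1 and 45.4 CPM to 36.2, 35.1 and 33.4 CPM and fell without overlap (log2 fold change -0.39, SE 0.07, edgeR adjusted p = 9.12e-05). PPARG, the regulator of fat cell differentiation, had 20.1 ± 1.73 CPM with NC siRNA and 18.5 ± 0.876 CPM with BNC2 siRNA and was not called (log2 fold change -0.12, 95% interval -0.30 to 0.06, edgeR adjusted p = 0.263).

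The sum of the PPARs per kb was 24.5 ± 1.09 CPM per kb with NC siRNA and 23.2 ± 0.53 with BNC2 siRNA, with overlap, while its make-up differed. PPARA held 3.74, 3.83 and 3.65 percent of it under NC siRNA and 14.5, 14.5 and 15.6 percent under BNC2 siRNA. PPARD went from a mean of 50.1% to 40.2% and PPARG from 46.2% to 44.9%, the latter with overlap. With the length of all exons in place of the canonical transcript, the PPARA share went from 5.54% to 22.0%, the PPARD share from 81.2% to 65.1% and the PPARG share from 13.3% to 12.9%, so the direction held and the PPARG level relative to PPARD did not.

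NR1H2 encodes LXRβ, the widely expressed oxysterol receptor. It was at 61.3, 60.8 and 59.4 CPM with NC siRNA and at 112, 100.4 and 99.9 CPM with BNC2 siRNA, a rise of 1.72-fold without overlap (log2 fold change 0.78, SE 0.06, edgeR adjusted p = 1.2e-08). Its relative NR1H3 (LXRα) was barely above the filter, with 1.28 ± 0.291 and 1.25 ± 0.291 CPM and overlapping libraries (log2 fold change -0.02, 95% interval -0.60 to 0.55, edgeR adjusted p = 0.945), and 83.1% of the reads over its exons came from the other strand, where ACP2 lies. NR1H2 was the main LXR in every library, at 96.9% or more of the LXR sum per kb.

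The thyroid hormone receptors moved in opposite directions. THRB (TRβ) rose from 1.18, 1.34 and 1.75 CPM with NC siRNA to 3.9, 3.05 and 3.88 CPM with BNC2 siRNA, with every treated library above every control library (log2 fold change 1.34, SE 0.22, edgeR adjusted p = 4.55e-05). THRA (TRα), the more abundant form, was lower, at 10.0 ± 0.13 CPM with NC siRNA and 7.33 ± 0.204 CPM with BNC2 siRNA (log2 fold change -0.45, SE 0.12, edgeR adjusted p = 0.00217). THRB held 7.58% to 10.5% of the thyroid hormone receptor sum per kb under NC siRNA and 22.5% to 27.1% under BNC2 siRNA, while the sum itself went from 2.12 ± 0.06 to 1.88 ± 0.09 CPM per kb. THRA remained the larger part in each library. The vitamin D receptor gene VDR fell, from 13, 11.9 and 13.8 CPM to 8.43, 7.16 and 8.4 CPM (log2 fold change -0.69, SE 0.12, edgeR adjusted p = 5.79e-05), and its groups were apart.

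The retinoic acid receptors did not pass the test. RARA had 21.4 ± 1.38 CPM with NC siRNA and 22.8 ± 2.72 CPM with BNC2 siRNA, with overlap (log2 fold change 0.10, 95% interval -0.10 to 0.29, edgeR adjusted p = 0.388). RARG had 16 ± 1.02 and 18.3 ± 0.308 CPM. Its 3 treated libraries lay above its 3 control libraries, at a log2 fold change of 0.19 (95% interval 0.01 to 0.37, edgeR adjusted p = 0.0758), and without NC siRNA replicate 2 it was called (edgeR adjusted p = 0.0483). The RARA share of their sum per kb was 54.3 ± 0.62% with NC siRNA and 52.5 ± 2.79% with BNC2 siRNA, with overlap.

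The RXRs are the shared partners of the thyroid hormone, retinoic acid and vitamin D receptors, the PPARs and the LXRs. RXRB rose from 16.9, 17.5 and 17.2 CPM with NC siRNA to 30.3, 31.8 and 28.8 CPM with BNC2 siRNA, 1.76-fold and without overlap (log2 fold change 0.82, SE 0.08, edgeR adjusted p = 1.59e-07). RXRA was measured at 22.4, 23.5 and 21.1 CPM and 20.1, 18.2 and 19.7 CPM, slightly lower with BNC2 siRNA (log2 fold change -0.21, SE 0.09, edgeR adjusted p = 0.0391). The RXRA call was lost without NC siRNA replicate 1 or 2 and without BNC2 siRNA replicate 2 or 3 (edgeR adjusted p from 0.0511 to 0.152), without a filter (0.109) and under DESeq2 (adjusted p = 0.0634). RXRG was at the floor. The RXR sum per kb went from 9.99 ± 0.28 to 14 ± 0.41 CPM per kb. RXRB made up 59.1, 58.8 and 60.9 percent of that sum under NC siRNA and 74.3, 77 and 73.7 percent under BNC2 siRNA, without overlap (exact two-sided permutation p = 0.1, the smallest possible), or 70.4% and 82.9% on average with the length of all exons.

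The REV-ERB genes NR1D1 and NR1D2 encode heme-binding repressors of the circadian clock. NR1D1 (REV-ERBα) stood at 30.2, 30.1 and 31.2 CPM with NC siRNA and at 12.8, 12 and 11.8 CPM with BNC2 siRNA. The replicates were close together in both groups, and NR1D1 fell to 0.401 of its control level (log2 fold change -1.32, SE 0.09, edgeR adjusted p = 7.15e-10). Its 3′ end overlaps that of THRA on the opposite strand (NR1D1 at chr17:38249046-38256842, minus strand; THRA at chr17:38214543-38250120, plus strand, GRCh37), and the counts are those of the strand of each gene. NR1D2 (REV-ERBβ) was only slightly lower, 38.4 ± 3.87 CPM with NC siRNA and 32.3 ± 3.35 CPM with BNC2 siRNA, with overlapping libraries (log2 fold change -0.25, SE 0.09, edgeR adjusted p = 0.0223), and its call was lost without NC siRNA replicate 1 (edgeR adjusted p = 0.0886) or BNC2 siRNA replicate 1 (0.119). The sum of the REV-ERBs went from 18.9 ± 0.75 to 10.8 ± 0.51 CPM per kb, and NR1D1 went from the larger part of it in each NC siRNA library (58.5% to 63.1%) to the smaller in each BNC2 siRNA library (40.1% to 46.8%).

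COUP-TFs are orphan receptors of mesenchymal and developing tissues that mostly repress. NR2F2 (COUP-TFII), expressed in stroma and venous endothelium, stood at 154, 147 and 169 CPM with NC siRNA and 81.1, 87.4 and 86.5 CPM with BNC2 siRNA. It fell to 0.543 of its control level (log2 fold change -0.88, SE 0.06, edgeR adjusted p = 3.14e-09), the largest loss in CPM of any receptor here. NR2F6 (EAR2) went from 37.5, 49.8 and 43.8 CPM to 36.9, 35.5 and 34.1 CPM, a smaller fall (log2 fold change -0.30, SE 0.09, edgeR adjusted p = 0.0076) whose call was lost without NC siRNA replicate 2 (log2 fold change -0.19, edgeR adjusted p = 0.0662). NR2F1 (COUP-TFI) had 12.5 ± 1.99 CPM with NC siRNA and 13.6 ± 0.375 CPM with BNC2 siRNA and was not called (log2 fold change 0.11, 95% interval -0.12 to 0.35, edgeR adjusted p = 0.391). Summed per kb, the COUP-TFs went from 51.2 ± 2.66 to 34.5 ± 0.33 CPM per kb, and NR2F2 from 57.9% to 46.6% of that sum on average.

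Of the testicular receptors, repressors and activators that bind direct repeats, NR2C1 (TR2) rose from 19.7, 18.7 and 19.3 CPM to 31.9, 27.1 and 25.3 CPM (log2 fold change 0.55, SE 0.10, edgeR adjusted p = 6.6e-05). NR2C2 (TR4) had 84.9, 65.5 and 63.1 CPM with NC siRNA and 64.9, 64.3 and 76.1 CPM with BNC2 siRNA. The groups overlapped and NC siRNA replicate 1 stood above the other 5 libraries (log2 fold change -0.06, 95% interval -0.25 to 0.13, edgeR adjusted p = 0.605). NR2C2 is the tested receptor whose call depended on strand: 29.0% of the reads over its exons came from the opposite strand, and counted on both strands it was called higher (log2 fold change 0.22, edgeR adjusted p = 0.03). NR2E1 (TLX), a repressor known from neural stem cells, was close to the filter, at 2.48, 2.3 and 2.53 CPM with NC siRNA and 0.582, 1.18 and 1.27 CPM with BNC2 siRNA. It fell without overlap, from 44, 41 and 42 counts to 10, 21 and 20 (log2 fold change -1.26, SE 0.27, edgeR adjusted p = 0.000546).

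Of the NR3 receptors, NR3C1, ESRRA and the mineralocorticoid receptor gene NR3C2 were tested. NR3C1, for the glucocorticoid receptor, was at 232, 207 and 204 CPM with NC siRNA and 179.7, 198 and 192 CPM with BNC2 siRNA. The groups came close to each other without overlap (log2 fold change -0.18, SE 0.06, edgeR adjusted p = 0.0191), and the call was lost without NC siRNA replicate 1 (edgeR adjusted p = 0.0628) or BNC2 siRNA replicate 1 (0.0902). ESRRA (ERRα), an orphan receptor that drives mitochondrial genes, rose from 29.2, 31.1 and 27.6 CPM to 39.3, 38.4 and 37.1 CPM without overlap (log2 fold change 0.38, SE 0.08, edgeR adjusted p = 0.000251). NR3C2 had 1.12 ± 0.435 and 0.957 ± 0.317 CPM and was not called (log2 fold change -0.23, 95% interval -0.93 to 0.48, edgeR adjusted p = 0.585), an interval too wide to tell a fall from a rise.

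**Figure D3:**
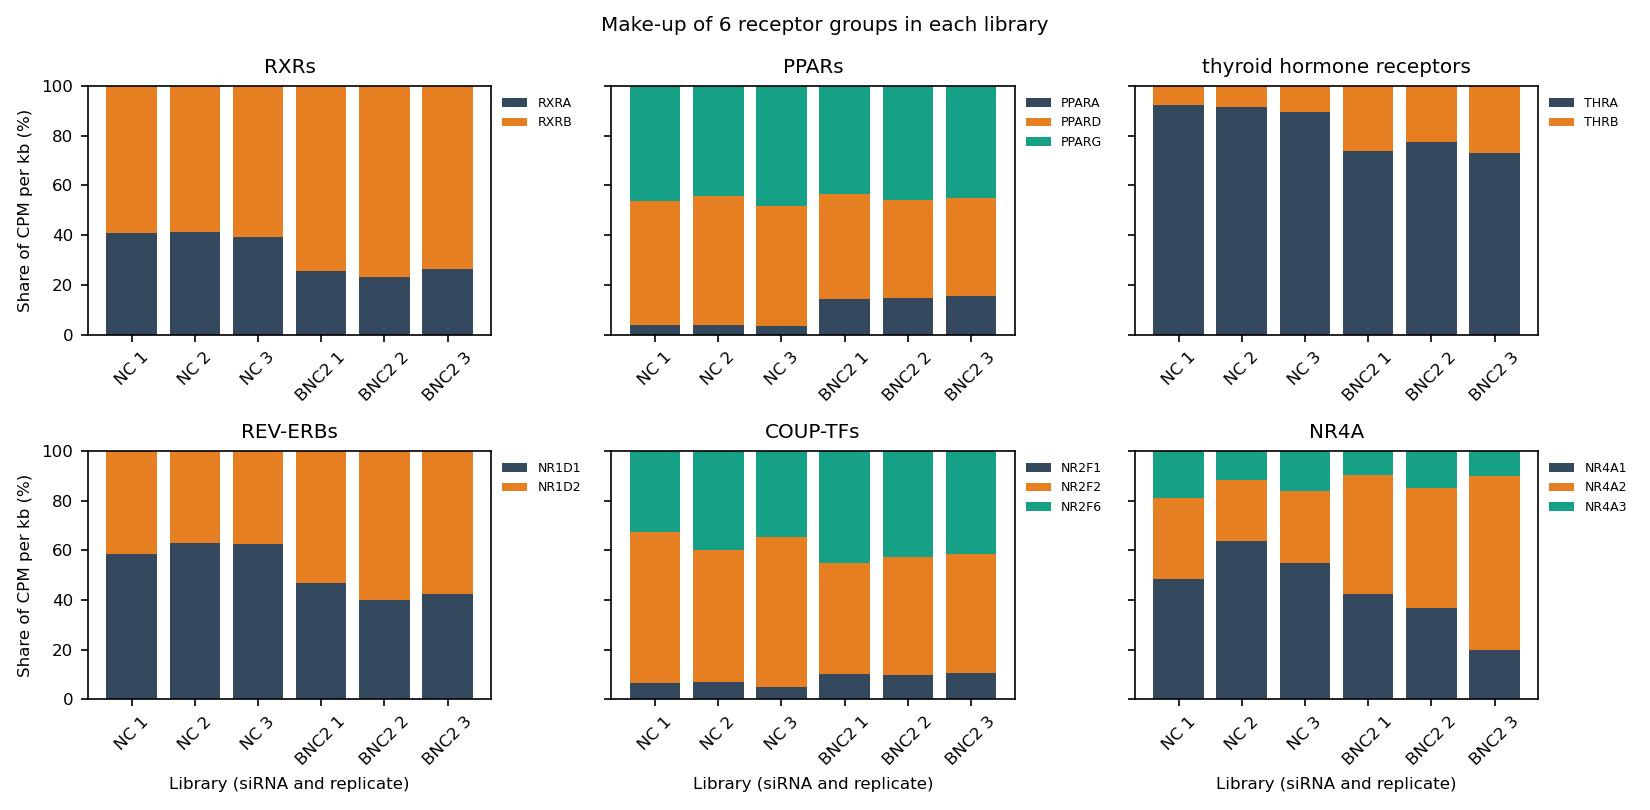
Make-up of 6 groups of related receptors in each library, as the percentage of the group's summed CPM per kb of canonical transcript held by each gene, for NC siRNA replicates 1 to 3 (left bars) and BNC2 siRNA replicates 1 to 3 (right bars). RXRB, PPARA and THRB hold a larger share in every BNC2 siRNA library than in any NC siRNA library, NR1D1 passes from the larger to the smaller part, and, with this length, NR4A2 replaces NR4A1 as the largest part (with the length of all exons it is the largest on average in both groups). The NR4A3 shares overlap.

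How did the genes that work with these receptors move? Nuclear receptors act through coactivators, which open chromatin, and corepressors, which close it. Of 25 coregulator genes listed, 23 were tested, of which 16 rose, 4 fell and 3 were not called, and the median log2 fold change was 0.24 (0.00 over all genes). That is 87.0% called, against 72.9% of all genes. HR, among the 4 that fell, passed the filter only through the NC siRNA libraries (1.24 ± 0.197 CPM, and 0.256 ± 0.082 CPM with BNC2 siRNA). PPARGC1A and NRIP1 were below the filter. In this and the following lists, genes were named when called with at least a 2-fold change and at 5 CPM or more in the higher group, and any other gene was named after its values were seen. TBL1X, a subunit of the NCOR corepressor complex, rose from 19.6 ± 1.54 to 65.5 ± 2.62 CPM (log2 fold change 1.74), LCOR, a ligand-dependent corepressor, from 17.5 ± 2.5 to 47.5 ± 4.71 CPM (1.44), and NCOA7, a coactivator with roles in stress defence, fell from 47.7 ± 0.605 to 18.6 ± 1.31 CPM (-1.36). Outside that rule, the p160 coactivators split: NCOA1 fell (log2 fold change -0.79) while NCOA2 (0.98) and NCOA3 (0.49) rose. The corepressor NCOR1 was not called (-0.11, edgeR adjusted p = 0.115).

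The LXR target list rose in most of its tested members. Of 9 listed genes 8 were tested, 5 rose, 2 fell and NR1H3, which is both a receptor and a target, was not called (87.5% called, against 72.9% of all genes, of which 36.6% rose), and the median log2 fold change was 1.24. SREBF1, the regulator of fatty acid synthesis, rose from 87.1 ± 4.29 to 334 ± 19.7 CPM (log2 fold change 1.94) and SCD, a fatty acid desaturase, from 1847 ± 78.2 to 5176 ± 160.2 CPM (1.49). ABCA1, the cholesterol exporter, rose from 34.5 ± 4.82 to 102 ± 6.92 CPM (1.56), and MYLIP, which targets the LDL receptor for breakdown, from 4.39 ± 0.388 to 16.2 ± 0.63 CPM (1.88). In the other direction, APOE, the lipid carrier, fell from 18.1 ± 3.68 to 6.62 ± 1.29 CPM (-1.45) and SMPDL3A, a phosphodiesterase, from 6.86 ± 0.131 to 1.65 ± 0.254 CPM (-2.06). The list thus did not move as a whole, and several of its members, SREBF1 and SCD among them, also answer to other regulators.

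PPAR target genes were mixed. Of 15 listed 10 were tested, 3 rose, 4 fell and 3 were not called (70% called, near the 72.9% of all genes), and the median log2 fold change was -0.04. None of them met the rule for naming. Of the oxidation genes, CPT1A, which admits fatty acids to mitochondria, rose from 266 ± 6.43 to 327 ± 12.9 CPM (log2 fold change 0.30), and HADHA, of the mitochondrial trifunctional protein, from 194 ± 6.88 to 264 ± 5.16 CPM (0.44). PLIN2, which coats lipid droplets, fell from 157 ± 5.76 to 84.2 ± 4.31 CPM (-0.90). The fat cell genes FABP4 and CD36 were low with NC siRNA (39, 33 and 30 and 45, 64 and 51 counts) and at the floor with BNC2 siRNA (0, 0 and 0 and 3, 2 and 0 counts). Both passed the filter only through the NC siRNA libraries, so their place among the 4 that fell was tied to the filter.

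Retinoid genes gave 7 tested of 18, of which 3 rose, 3 fell and STRA6, the retinol uptake receptor, was not called (0.29, edgeR adjusted p = 0.175). The share called was 85.7%, against 72.9% of all genes. The median size of these changes, whatever their sign, was 2.30 on the log2 scale (0.44 over all genes). Both figures include CYP26B1 and RARRES1, which passed the filter because of the group in which they were higher. Their direction was thus tied to the filter. RDH10, the enzyme that starts retinoic acid synthesis by oxidising retinol, fell from 44.2, 41.7 and 37.1 CPM to 5.58, 5.59 and 4.14 CPM (log2 fold change -3.00, SE 0.12, edgeR adjusted p = 1.36e-12). DHRS3, which reduces retinal back to retinol, rose from 7.32, 6.33 and 8.13 CPM to 25.4, 26.3 and 24.8 CPM (log2 fold change 1.82, SE 0.11, edgeR adjusted p = 1.76e-10). CRABP2, which carries retinoic acid to its receptors, fell from 10.7 ± 0.982 to 2.17 ± 0.542 CPM (-2.30) and TGM2, a retinoic acid target, rose from 11.3 ± 0.555 to 35.2 ± 4.33 CPM (1.64). CYP26B1, which breaks down retinoic acid, rose at a level under 5 CPM on average, from 9, 18 and 11 counts to 50, 70 and 89 (edgeR adjusted p = 1.7e-06), and RARRES1, named for its response to retinoic acid, fell from 21, 20 and 21 counts to 1, 5 and 2. The 11 others were below the filter, among them all 3 ALDH1A genes for retinal dehydrogenases listed and CYP26A1.

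The glucocorticoid receptor list, of target genes and chaperones, had 14 of 17 genes tested, with 6 higher, 5 lower, 3 not called (78.6% called, against 72.9% of all genes) and a median of 0.13 for the log2 fold change. Of the 6 higher, 3 were chaperone genes (FKBP4, HSP90AA1 and HSP90AB1) and 3 targets. Of these targets, TSC22D3 (GILZ) rose from 5.34 ± 0.854 to 14 ± 1.94 CPM (log2 fold change 1.39), CEBPD from 17.8 ± 2.99 to 46.7 ± 5.2 CPM (1.39) and, outside the rule for naming, the kinase gene SGK1 from 44.5 ± 1.42 to 73.1 ± 1.9 CPM (0.72). The 5 that fell were NFKBIA, an inhibitor of NF-κB, from 172 ± 18 to 71.4 ± 1.17 CPM (-1.27), TNFAIP3, another such inhibitor, from 24.2 ± 2.17 to 9.17 ± 0.827 CPM (-1.40), the phosphatase gene DUSP1 from 15.5 ± 0.314 to 7.39 ± 0.84 CPM (-1.07), and, outside the rule for naming, the transcription factor gene KLF9 (-0.96) and GLUL, for glutamine synthetase (-0.60). FKBP5, a classical target, was below the filter.

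Clock genes other than the REV-ERBs gave 17 tested of 20 listed, with 6 higher, 5 lower and 6 not called (64.7% called, against 72.9% of all genes), and a median of -0.02 for the log2 fold change. The repressor BHLHE40 rose from 40.6 ± 2.98 to 109 ± 6.75 CPM (1.43) and its relative BHLHE41 fell from 13.4 ± 1.53 to 4.31 ± 0.47 CPM (-1.63). Outside the rule for naming, ARNTL (BMAL1) and NFIL3 rose from 12.8 ± 2.04 to 21.3 ± 1.27 CPM (0.74) and from 30.4 ± 2.47 to 43.9 ± 1.38 CPM (0.53), CRY1 fell from 20.8 ± 1.15 to 17.3 ± 0.655 CPM (-0.27), and CLOCK fell from 56.1 ± 7.36 to 38.7 ± 2.35 CPM (-0.54).

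The remaining lists were mostly below the filter, and their few calls stand beside 72.9% of all genes called. Of 6 vitamin D genes 3 were tested, and CYP27B1, which makes the active hormone, fell from 9.74 ± 2.69 to 3.49 ± 0.458 CPM (-1.48), CD14 fell at a lower level and CYP2R1 was not called. CYP24A1, the usual VDR target, was not past the filter. Of 7 thyroid hormone genes 3 were tested, 2 fell and 1 was not called. CRYM, which binds the hormone, fell from 34, 37 and 32 counts to 0, 0 and 1, and passed the filter only through the NC siRNA libraries. Of 9 estrogen and progesterone target genes 4 were tested, with IGFBP4 (2.30), MYC (0.47) and XBP1 (0.27) higher and CCND1, for cyclin D1, lower (-1.39) on the log2 scale. TFF1, GREB1 and PDZK1 were below the filter.

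**Figure D4:**
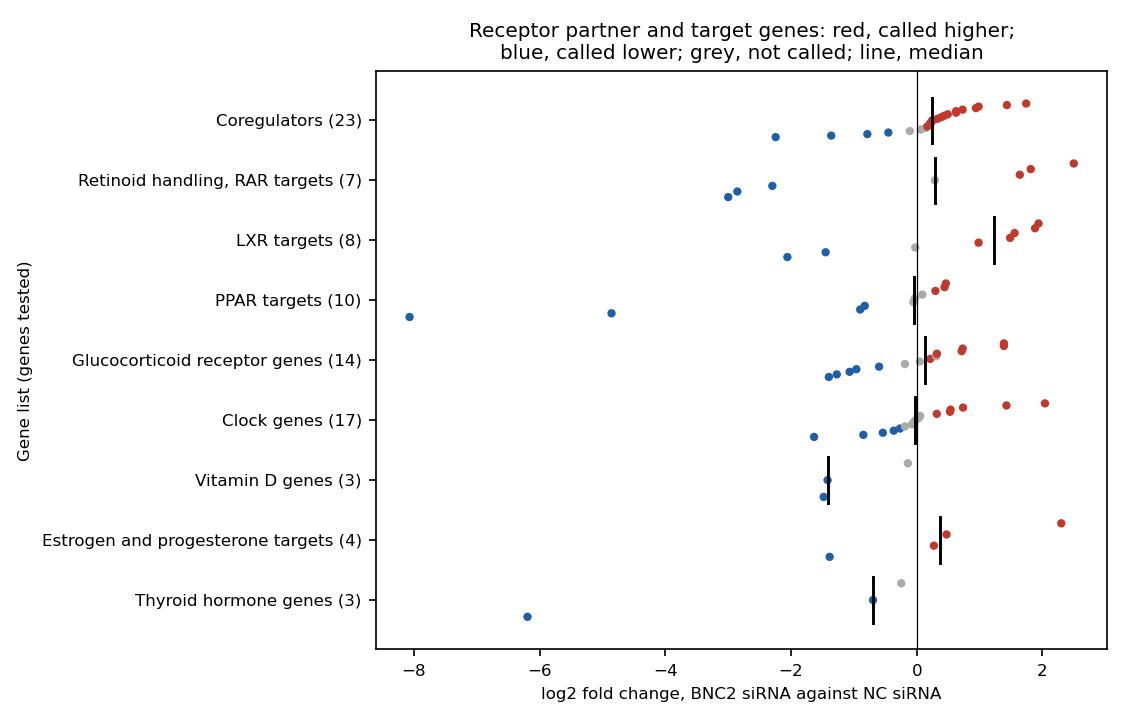
Log2 fold changes, BNC2 siRNA against NC siRNA, of the tested genes in 9 lists of receptor partners and targets, with 1 dot a gene (red, called higher; blue, called lower; grey, not called) and a line at the list's median. The numbers of genes tested stand beside the names. The LXR list has its median at 1.24, the vitamin D list of 3 genes at -1.42 and the thyroid hormone list of 3 genes at -0.70, and the other medians lie between -0.04 and 0.37; the farthest dots on the left are FABP4, CRYM and CD36, whose fitted values depend on how counts at or near 0 are handled.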

How the data were processed

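The authors aligned single-end reads with STAR (2.6.1d in the submitters' processing notes) to hg19 (iGenomes UCSC annotation) and deposited raw gene counts of uniquely mapped reads, without normalisation. The table of the series equals the reverse-strand column of the library files in all 23346 genes. Reads assigned to no gene (37.7% to 41.1% of a library, including multimapping reads at 8.68% to 9.71% of the library) were left out. Library totals of 16093978 to 18246254 counts make 3 counts, the limit that a count of 0 allows, 0.168 to 0.191 CPM, which covers counting error only.

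The 12186 genes above 1 CPM in 3 or more of the 6 libraries were compared with edgeR 4.0.16 (R 4.3.3), TMM scaling and the quasi-likelihood test, without a replicate block, and called at a Benjamini-Hochberg adjusted p of at most 0.05 over all genes tested. The authors used the likelihood ratio test of edgeR, which was tried as an alternative, as were DESeq2 1.42.0, other scalings and filters, a replicate block, counts of both strands and each library left out. Tested on simulated data, in which 198 of 12099 genes tested changed 2-fold, the procedure recovered 192 (97.0%) with 5 false calls (2.54%). The simulation gave all genes the same replicate spread and changed far fewer genes than were called here. It does not cover changes smaller than 2-fold. The labels name Lipofectamine 2000 and the methods another reagent for the transfection. Whether replicates came from separate cultures is stated only as biological replicates. Their counts differed by more than sampling noise in every pair.

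Transcript lengths and coordinates are from GENCODE 44 mapped to GRCh37, promoter sequences from RefSeq (GRCh38.p14), where 41 of the 46 receptors had an entry (VDR, HNF4G, NR2F6, NR4A2 and NR0B2 did not). Shares within a receptor group were computed from CPM per kb in each library. The receptors and gene lists were chosen with earlier results of these data known. Every receptor was named. Values by library were given for receptors called with at least a 1.5-fold change, and for those whose groups did not overlap with at least 20 CPM in the higher group. Genes of other lists were named when called, changed at least 2-fold and at 5 CPM or more in the higher group, at most 6 a list, and any other is said to have been named after its values were seen. One clock gene, CIART, had no row under that symbol. A few genes of the lists count in the totals and are not reported singly.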

Additional observations from a re-analysis of the deposited data

Results flagged for a closer look

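Reads on the strand opposite to 2 receptor genes, which the comparisons leave out, were higher with BNC2 siRNA than in the control libraries. Reads antisense to NR2C2 were at 37.4 ± 1.31 CPM with BNC2 siRNA and 19.9 ± 1.67 CPM with NC siRNA (mean ± SD, n = 3 each), from 625, 654 and 610 and from 382, 356 and 302 reads. The genes MRPS25 and FGD5-AS1 lie on that strand. Reads antisense to NR1H3 were at 7.39 ± 0.18 CPM with BNC2 siRNA and 5.14 ± 0.40 CPM with NC siRNA, from 124, 131 and 119 and from 83, 96 and 89 reads, and ACP2 lies there. In both cases the 3 treated libraries lay above the 3 control libraries, and no test of these reads was run. Among receptors with at least 100 such reads in all, 3 lay the other way without overlap: NR1I3 had 73, 81 and 80 antisense reads with NC siRNA and 46, 47 and 60 with BNC2 siRNA, NR2F2 had 82, 81 and 69 and then 20, 31 and 34, and NR1D1 had 30, 48 and 24 and then 16, 18 and 19. For scale, 74.9% of all genes tested had groups that did not overlap in the counts of their own strand. No such share was computed for antisense reads over all genes.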

How the results depend on the processing

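Of the 21 receptors called, 17 were called in the same direction under all 14 alternatives, the exceptions being NR1D2, RXRA, NR2F6 and NR3C1, whose calls were lost under some of them without a change of direction. Over the alternatives 7 to 9 receptors were called higher and 11 to 14 lower, and 8271 to 9662 genes in all. The median log2 fold change of the receptors, -0.19, was -0.27 with total counts as the only scaling, -0.15 without a filter, -0.11 with edgeR's filterByExpr, -0.17 with counts of both strands, and from -0.22 to -0.11 with 1 library left out. Without a filter, 5 retinoid genes and 2 estrogen and progesterone targets were called lower, and 1 gene of the other cell markers was called lower. Without a filter and with filterByExpr alike, 1 thyroid hormone gene and 1 epithelial marker were called higher. Where a filter admits other genes, the set tested differs. NR1H3, not called, had a log2 fold change of 0.0037 without a filter and from -0.23 to 0.11 with 1 library left out, and NR2C2 one of 0.22 with both strands and of 0.083 without NC siRNA replicate 1 (from -0.15 to 0.083 with 1 library left out). The cause was not tested. The counts gave no sign that replicate numbers pair the samples: libraries of the same number had correlations of their deviations of -0.21, -0.08 and -0.13. These values cannot settle whether the samples were paired. With a replicate block 8400 genes were called (8879 without it), among them 7 receptors higher and 12 lower, and RXRA (edgeR adjusted p = 0.0811) and NR3C1 (0.0570) were not called. Alternatives chosen after seeing the data were the length of all exons and leaving out libraries for the shares. With the length of all exons, the share of RXRB rose by 12.5 percentage points in place of 15.4 and that of PPARA by 16.5 in place of 11.1. Single-gene fold changes of receptors under about 2 CPM have wide intervals at this depth.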
